A study of Mus musculus with 12 samples.

Results

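Bmal1, Clock, Npas2, Nr1d1, Nr1d2, and Rora encode the activators of the circadian clock and the nuclear receptors that control the gene of one of them. They were chosen by name, and their rows in the deposited expression table were found by Ensembl identifier. All 6 were among the 12591 genes of the table, and all 6 had therefore passed the filter of the authors on low values.

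BMAL1 pairs with CLOCK, or with its relative NPAS2, and the pair binds E-boxes in DNA to activate the Per and Cry genes, whose proteins in turn inhibit the pair. The same E-boxes drive Nr1d1 and Nr1d2, whose products REV-ERBα and REV-ERBβ are heme-binding repressors. They compete with RORα, the product of Rora and an activator, for ROR response elements (ROREs) in the Bmal1 gene, which closes an additional feedback loop. Fibroblasts run this clock in culture, and Bmal1, Nr1d1, and Nr1d2 are known to cycle in many tissues.

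The cells were embryonic fibroblasts of the C57 PER2::LUC strain, prepared by the study from heterozygous knock-in mice in which luciferase is fused to PER2 and then immortalized. How many embryos they came from was not found in the sources used here. At confluence they received fresh medium alone (CTL), 10 μM deazaneplanocin A (DZ, an inhibitor of the enzyme AHCY, which removes S-adenosylhomocysteine), 1 mM adenine, or 1 mM S-adenosylmethionine (SAM, the methyl donor of the cell). HCl at 3.3 mM was in the medium of all 4 groups, and RNA was taken 24 h later from 3 replicate dishes per group. With a single time point, a change in level and a shift in the phase of a cycling gene cannot be told apart. P-values below measure the spread between replicate dishes.

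Values are log2 CPM, the base 2 logarithm of the reads of each gene after scaling libraries to one size (CPM), with the normalized sizes of the authors. The 12 libraries held between 45649534 and 56789090 reads on the listed genes. Of 10 fibroblast markers 8 were listed (Dcn and Lum were not), none of the 13 epithelial, endothelial, and muscle markers was, and Cd68 was the only leukocyte marker of 5, with log2 fold changes of -0.11 under DZ (adjusted p = 0.458, limma), 1.73 under adenine, and 2.28 under SAM. The summed level of the fibroblast markers was 21800 to 22300 CPM in CTL, 27700 to 28300 under DZ, 24200 to 26500 under adenine, and 15900 to 17200 under SAM. Under SAM 7 of the 8 rose, with a median of 0.411, and Fn1, at 13.56 log2 CPM in CTL the largest term of that sum, fell by 1.58. Of 4 neural markers 3 were listed, with a summed level of 29.0 to 29.6 CPM in CTL, 28.8 to 33.2 under DZ, 60.9 to 62.1 under adenine, and 43.9 to 46.4 under SAM. That of 10 proliferation markers was 688 to 714 CPM in CTL, 717 to 813 under DZ, 1680 to 1750 under adenine, and 1970 to 2070 under SAM. The part of these shifts in the results below was not tested, and fewer cells of a type cannot be told apart from less RNA per cell.

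Per kilobase of exon, Nr1d2 was the most abundant of the 6 transcripts in CTL and Npas2 the least. The levels, as log2 of CPM per kilobase of the exon union (RPKM), were 4.03 ± 0.0458 (SD, n = 3 here and for all levels) for Nr1d2, 3.51 ± 0.0366 for Nr1d1, 2.27 ± 0.0348 for Clock, 1.52 ± 0.057 for Rora, 0.31 ± 0.101 for Bmal1, and -1.32 ± 0.134 for Npas2. No neighbors in this order overlapped between the CTL libraries, and the order was the same with the length of the longest transcript. In treated cells the order of Rora and Bmal1 depended on the length used. With the exon union Rora stayed above Bmal1 under adenine (1.39 ± 0.0323 against 0.99 ± 0.0322), but with the longest transcript Bmal1 was above Rora under adenine (2.30 ± 0.0322 against 1.79 ± 0.0323) and under SAM (1.81 ± 0.0613 against 1.21 ± 0.212).

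**Figure D1:**
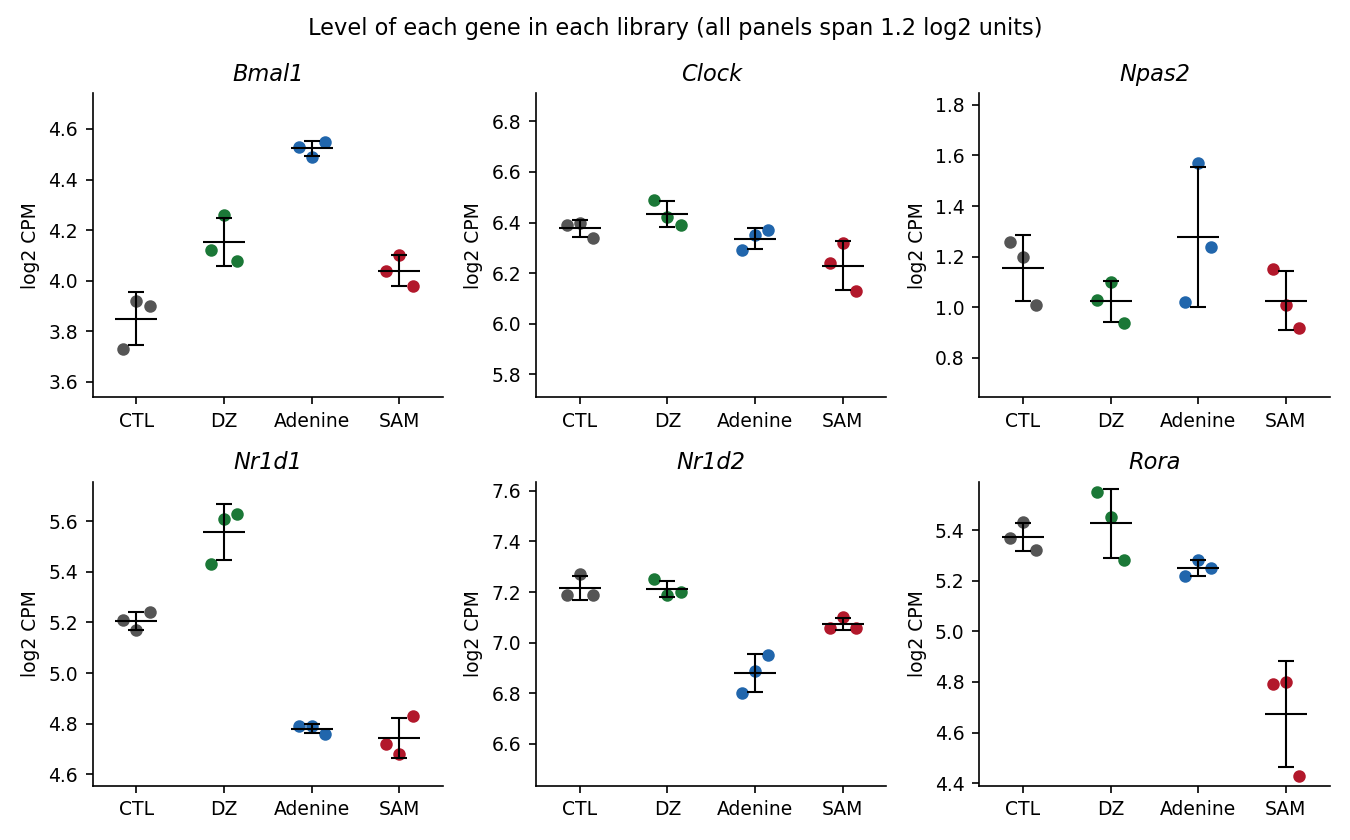
Level of the 6 genes in each library. The vertical axis is log2 CPM and spans 1.2 units in every panel, points are the 3 replicate dishes of CTL, DZ, adenine, and SAM, and bars are the mean and SD. Bmal1 was highest under adenine (4.49 to 4.55), Nr1d1 was above CTL under DZ and below it under adenine and SAM, and Rora was lowest under SAM (4.43 to 4.80).

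Bmal1, the partner shared by CLOCK and NPAS2, was higher than CTL under DZ and adenine, most under adenine. The gene lies on chromosome 7 (112806152 to 112914735, plus strand, GRCm39). The second of its RefSeq promoter windows, chr7:113207261-113207560 of GRCm38.p6 on the plus strand, runs from 250 bases before a transcript start to 50 after it. It is shown because it holds the letters of an RORE core, TAGGTCA, in capitals, beginning at base 31 after the start.
Bmal1 promoter: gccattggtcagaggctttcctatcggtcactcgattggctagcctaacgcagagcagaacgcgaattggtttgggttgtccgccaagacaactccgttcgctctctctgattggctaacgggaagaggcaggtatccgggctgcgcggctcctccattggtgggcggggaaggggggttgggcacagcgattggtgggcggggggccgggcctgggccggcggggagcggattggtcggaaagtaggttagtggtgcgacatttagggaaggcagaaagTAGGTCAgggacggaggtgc
These letters, on either strand, stand in 2.61% of the 32851 promoter windows of this length, and a match is no proof of a bound site.

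The Bmal1 level was 3.73, 3.92, and 3.90 log2 CPM in the 3 CTL libraries and 4.12, 4.26, and 4.08 under DZ. Under adenine it was 4.53, 4.49, and 4.55, and under SAM 4.04, 4.10, and 3.98. Every treated library thus lay above every CTL library, and the adenine libraries lay above all others. The rise was 0.31 on the log2 scale under DZ (standard error 0.0653, 95% interval 0.17 to 0.44, adjusted p = 0.000983) and 0.67 under adenine (0.53 to 0.81, adjusted p = 1.88e-07), in limma with Benjamini-Hochberg adjustment over all genes. These are 23.6% and 59.5% more RNA than in CTL. Under SAM the difference of 0.19 (0.05 to 0.33, adjusted p = 0.0147) missed the threshold, a false discovery rate (FDR) under 0.01. It would pass it with plain read totals as scaling (0.313, adjusted p = 0.000375), where the median of all genes also moves, from -0.0154 to 0.107.

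Clock, which encodes the partner of BMAL1 with histone acetyltransferase activity, moved little (chromosome 5, 76342860 to 76452846, minus strand). Its level was 6.39, 6.40, and 6.34 log2 CPM in CTL, 6.49, 6.42, and 6.39 under DZ, 6.29, 6.35, and 6.37 under adenine, and 6.24, 6.32, and 6.13 under SAM. The SAM libraries were all below the CTL libraries, by a narrow margin, whereas DZ and adenine overlapped CTL. The fall under SAM was called (log2 fold change -0.15, standard error 0.045, 95% interval -0.24 to -0.05, adjusted p = 0.00742 in limma). That call was lost with plain read totals (-0.0261), quantile normalization (-0.131), no variance trend, or a separate model, and without CTL replicate 1 (-0.14), CTL replicate 2 (-0.136), SAM replicate 1 (-0.155), or SAM replicate 3 (-0.0975). Differences under DZ (0.05, -0.04 to 0.15) and adenine (-0.04, -0.14 to 0.05) were not called.

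Npas2, the CLOCK relative that can take its place, was near the floor of the table, with 89 to 163 reads per library and a mean above that of only 2% of the genes (chromosome 1, 39232705 to 39402323, plus strand). It stood at 1.26, 1.20, and 1.01 log2 CPM in CTL, 1.03, 1.10, and 0.94 under DZ, 1.02, 1.57, and 1.24 under adenine, and 1.15, 1.01, and 0.92 under SAM. All groups overlapped, and adenine replicate 2 alone was above 1.26. The log2 differences from CTL were -0.13 (-0.44 to 0.18) under DZ, 0.12 (-0.19 to 0.43) under adenine, and -0.13 (-0.44 to 0.18) under SAM, and limma called none (adjusted p = 0.466, 0.475, and 0.435). Its standard error, 0.146, was the largest of the 6 genes. Without adenine replicate 2 the adenine difference was -0.0262.

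Nr1d1 was the member that moved in opposite directions. It was higher than CTL under DZ and lower under adenine and SAM (chromosome 11, 98658752 to 98666188, minus strand). Its RefSeq promoter window, chr11:98775328-98775627 of GRCm38.p6 on the minus strand, is shown because it holds an E-box variant, CACGTT, on the opposite strand, with its letters in capitals from position -28 relative to the start. A stretch farther upstream, chr11:98666487-98666546 of GRCm39 on the minus strand, is shown because it holds an E-box, CACGTG, at position -367 from the start of the canonical GENCODE transcript (98666159) and the variant at -354, both in capitals.
Nr1d1 promoter: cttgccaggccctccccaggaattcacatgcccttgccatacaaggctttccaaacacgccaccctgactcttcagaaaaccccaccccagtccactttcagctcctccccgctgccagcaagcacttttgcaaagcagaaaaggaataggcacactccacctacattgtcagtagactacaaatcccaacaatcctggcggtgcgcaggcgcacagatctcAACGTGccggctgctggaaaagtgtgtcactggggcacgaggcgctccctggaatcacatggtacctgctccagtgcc
Nr1d1 upstream stretch: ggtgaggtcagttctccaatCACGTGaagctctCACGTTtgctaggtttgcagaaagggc
Among all promoter windows of this length, 7.15% hold CACGTG and 4.68% hold CACGTT on either strand. The second stretch was chosen after searching the 500 bases before the GENCODE start for these letters. That search also found the variant at -72. Position -28 above is counted from the RefSeq start, which differs from the GENCODE start, so it cannot be set beside -354 and -367.

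In CTL, Nr1d1 was at 5.21, 5.17, and 5.24 log2 CPM, and under DZ at 5.43, 5.61, and 5.63. Under adenine it was at 4.79, 4.79, and 4.76, and under SAM at 4.72, 4.68, and 4.83. All DZ libraries were above all CTL libraries, and all adenine and SAM libraries were below them. The gene rose by 0.35 on the log2 scale under DZ (standard error 0.0554, 95% interval 0.23 to 0.47, adjusted p = 7.24e-05), or 27.4%. It fell by 0.43 under adenine (-0.55 to -0.31, adjusted p = 4.76e-06) and by 0.46 under SAM (-0.58 to -0.34, adjusted p = 1.59e-06), all in limma. These calls held without each library in turn and with every other scaling and model tried.

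Exons of Nr1d1 share 1694 of 3242 bases with Thra, a thyroid hormone receptor gene on the opposite strand. The library kit keeps the strand, but the strand setting used in counting was not found in the sources used here. Thra itself, named for this reason after its values were seen, differed from CTL by 0.03, -0.06, and 0.01 under DZ, adenine, and SAM, none called by limma (adjusted p = 0.491, 0.133, and 0.874). Clock shares 2047 of 17251 exonic bases with Tmem165 on the opposite strand, which fell by 0.11 under DZ and rose by 0.25 under adenine and 0.36 under SAM. The part of shared reads in the Nr1d1 and Clock values was not tested.

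Nr1d2, the second REV-ERB gene (chromosome 14, 4230545 to 4266624, plus strand), fell under adenine and, by less, under SAM. Its RefSeq window holds AGGTCA, the hexamer within an RORE, at position -77 from the start, as do 16.3% of all windows on either strand. The hexamer also stands in a Clock window, on the opposite strand at -119, and within the TAGGTCA shown for Bmal1. It is unmarked in the upstream stretch of Nr1d1, which was searched for E-boxes and the variant only. Levels were 7.19, 7.27, and 7.19 log2 CPM in CTL, 7.25, 7.19, and 7.20 under DZ, 6.80, 6.89, and 6.95 under adenine, and 7.06, 7.10, and 7.06 under SAM. The adenine libraries were the lowest, the SAM libraries lay between them and CTL, and DZ and CTL overlapped. In limma the fall was 0.33 under adenine (standard error 0.0368, adjusted p = 8.2e-07), whereas SAM lowered the level by 0.14 (adjusted p = 0.00263). The SAM call was lost with plain read totals (-0.019), quantile normalization (-0.0923), and without CTL replicate 2 (-0.115). Under DZ the log2 fold change was -0.00105, with an interval of -0.08 to 0.08, beside 0.23 to 0.47 for Nr1d1.

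Rora, the gene of the activator RORα (chromosome 9, 68561068 to 69295528, plus strand), had the deepest fall of the 6 genes, under SAM. Its level was 5.37, 5.43, and 5.32 log2 CPM in CTL, 5.55, 5.45, and 5.28 under DZ, 5.22, 5.28, and 5.25 under adenine, and 4.79, 4.80, and 4.43 under SAM. The SAM libraries were far below the rest, and SAM replicate 3 was lower than the other two by more than they were apart from each other. The fall under SAM was 0.70 (standard error 0.085, 95% interval -0.88 to -0.52, adjusted p = 1.77e-06 in limma), a change in RNA of -38.5%, and it was 0.58 without SAM replicate 3. The adenine libraries also lay below all CTL libraries, but the difference of -0.12 (-0.30 to 0.06) was not called (adjusted p = 0.207). Under DZ it was 0.05 (-0.13 to 0.23).

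Of the paralogs, Rorb was not listed. Bmal2, which can also pair with CLOCK, was at a mean of 5.05 log2 CPM in CTL and fell by 0.29 with DZ (adjusted p = 0.00015) and by 0.22 with SAM (adjusted p = 0.000806, in limma). The fall under SAM was not called with plain read totals (-0.101), and the adenine difference of -0.13 was called with median centring (-0.182) and quantile normalization (-0.184) only.

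Counted over the 6 genes, limma called 2 under DZ, 3 under adenine, and 4 under SAM. Both DZ calls were higher, against 22.6% of all genes called higher and 23.4% lower (45.9% in all). Of the adenine calls 1 was higher and 2 were lower, against 30.6% and 31.0% of all genes (61.6% in all). The 4 SAM calls were all lower, against 33.7% of all genes higher and 35.7% lower (69.3% in all). With plain read totals the SAM calls were 1 higher (Bmal1) and 2 lower (Nr1d1 and Rora). The counts were thus 2 of 6, 3 of 6, and 4 of 6 beside backgrounds in which a large share of all genes changed. Median log2 fold changes of the 6 genes were 0.0534, -0.0838, and -0.145, and those of all genes were -0.00569, -0.00301, and -0.0154. The 3 comparisons share the CTL libraries.

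**Figure D2:**
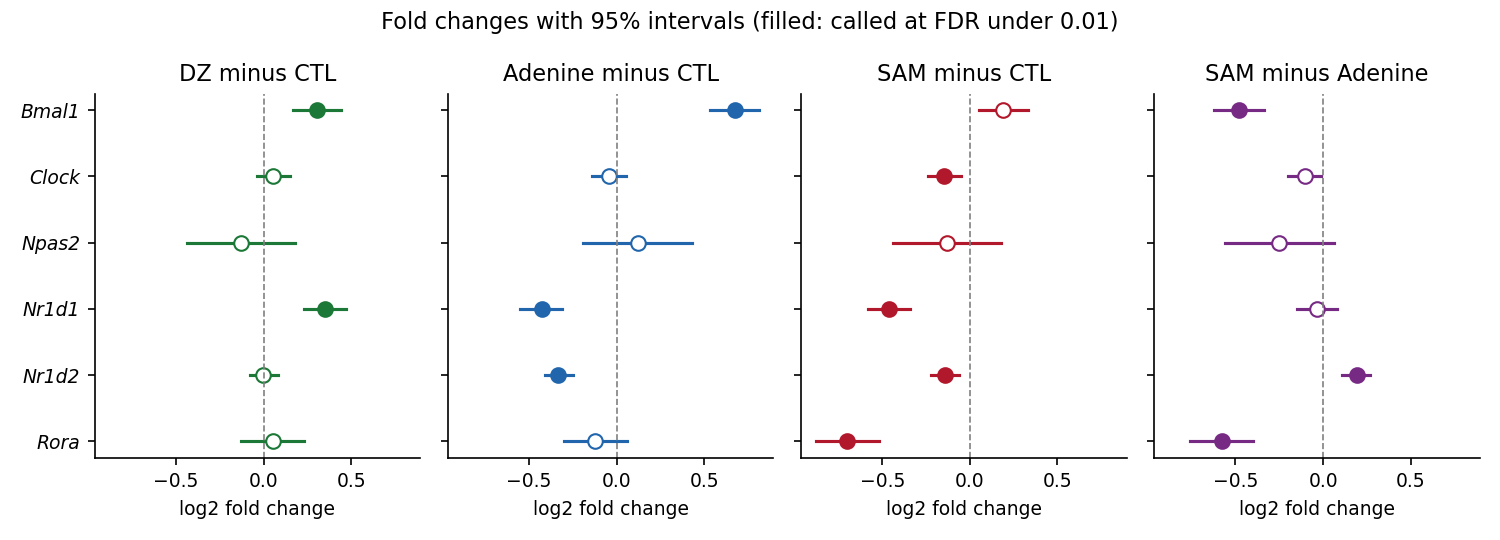
Log2 fold changes of the 6 genes in 4 comparisons. Points are limma estimates, lines are 95% intervals, and filled points were called at an FDR under 0.01. Nr1d1 lies to the right of 0 under DZ (0.35) and to the left under adenine (-0.43) and SAM (-0.46), and Rora differs most under SAM (-0.70).

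SAM and adenine were given at the same concentration and for the same time, and this single pair was tested directly. In these cells SAM and adenine differed in 3 of the 6 genes, 1 higher and 2 lower under SAM, against 20.8% of all genes higher and 22.0% lower (42.7% in all). Bmal1 was lower under SAM than under adenine by 0.48 on the log2 scale (-0.62 to -0.34, adjusted p = 1.91e-05), and Rora was lower by 0.58 (-0.76 to -0.40, adjusted p = 4.11e-05). Nr1d2 was higher under SAM by 0.19 (0.11 to 0.27, adjusted p = 0.000434, all in limma). In each of these genes the SAM and adenine libraries did not overlap, and the share of all genes with no overlap was not counted. For Nr1d1 the difference was -0.03, with an interval of -0.15 to 0.08, and for Clock it was -0.10 (-0.20 to -0.01, adjusted p = 0.0616 in limma). Npas2 differed by -0.25, with a wide interval of -0.56 to 0.06. DZ was given at a lower concentration, so its values stand beside these with no test between them.

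Ratios of 2 genes within a library do not depend on how libraries were scaled. They were chosen after the values above were seen, and 3 dishes against 3 cannot give an exact permutation p under 0.1 (two-sided, 0.133 after Benjamini-Hochberg adjustment over 12 tests). The log2 ratio of Nr1d1 to Bmal1 reads, a repressor set against the gene it acts on, was 1.48, 1.25, and 1.34 in CTL and 1.31, 1.35, and 1.55 under DZ. It was 0.26, 0.30, and 0.20 under adenine and 0.68, 0.58, and 0.85 under SAM. Both genes rose under DZ, and the ratio overlapped that of CTL (difference 0.04, exact permutation p = 0.6). It was lower than in CTL by 1.10 under adenine and by 0.65 under SAM in every library, each at the smallest p the design allows, exact permutation p = 0.1.

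The log2 ratio of Clock to Bmal1, the 2 partners of the activator, was 2.53 ± 0.117 in CTL, 2.28 ± 0.11 under DZ, 1.81 ± 0.0498 under adenine, and 2.19 ± 0.0368 under SAM. Every treated library was below every CTL library (exact permutation p = 0.1 in each comparison). That of Nr1d1 to Rora, a repressor and an activator of the same elements, was -0.17 ± 0.0933 in CTL and -0.47 ± 0.0403 under adenine, with no overlap. Under DZ (0.13 ± 0.233) and SAM (0.07 ± 0.291) it overlapped CTL (exact permutation p = 0.2 in both), and SAM replicate 3 had the highest ratio of all, 0.41.

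**Figure D3:**
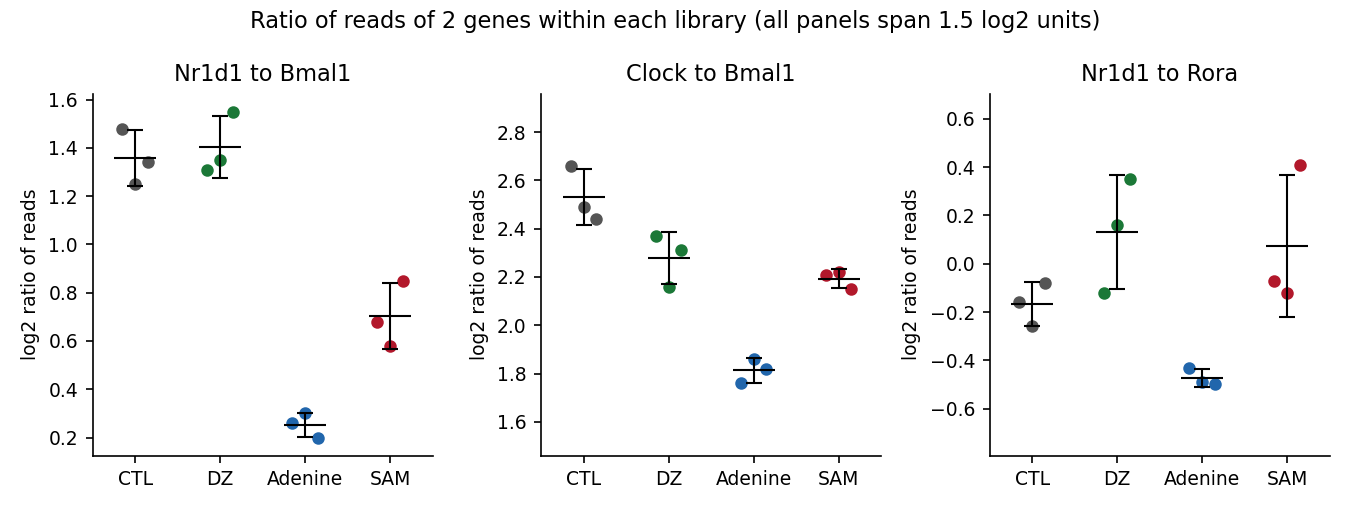
Log2 ratio of the reads of 2 genes within each library. Each panel spans 1.5 log2 units, points are the 3 replicate dishes of a group, and bars are the mean and SD. Nr1d1 to Bmal1 was 0.20 to 0.30 under adenine and 1.25 to 1.48 in CTL.

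Of 11 target genes of CLOCK:BMAL1 at E-boxes, 10 were listed (Hlf was not). Under DZ 1 rose and 4 fell, under adenine 7 fell, and under SAM 3 rose and 4 fell, with median log2 fold changes of -0.0975, -0.388, and -0.128. The 5, 7, and 7 calls among 10 genes stand beside 45.9%, 61.6%, and 69.3% of all genes called. With median centring 2 rose and 6 fell under SAM. Dbp, a transcription factor gene with a strong daily rhythm, fell in all treatments, by 0.99, 1.35, and 0.71. Cry1, a repressor of CLOCK:BMAL1, rose by 0.29 under DZ and fell by 0.65 under adenine, and Per3 fell by 0.72 under DZ and rose by 0.43 under SAM. Ciart, a repressor of the clock, fell by 1.00 under adenine and fell by 2.87 under SAM, where no other gene of the list fell further. Tef, a relative of Dbp, fell by 0.47 under adenine, and Cry2 fell by 0.79 under SAM. Between SAM and adenine all 10 differed, 8 higher and 2 lower under SAM, with a median of 0.37 against 0.000116 for all genes. Of all genes 20.8% were called higher and 22.0% lower in this comparison (42.7% in all). The 2 lower genes were Cry2 (-0.49) and Ciart (-1.87).

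Of 9 genes known as targets of REV-ERB and ROR, 5 were listed. Under DZ 4 of them rose, among them Ccl2 (0.60), a chemokine gene, Nfil3 (0.40), a repressor of D-box genes, and Cry1 (0.29). The median of the 5 was 0.397, and 22.6% of all genes were called higher. Under adenine 1 rose, and Cry1 (-0.65) and Insig2 (-0.26), a regulator of sterol synthesis, fell. Under SAM 2 rose, Ccl2 (0.89) among them, and Nfil3 fell by 0.89, with Cry1 also called lower by voom, median centring (-0.241), and quantile normalization (-0.282). The medians under adenine and SAM were -0.0281 and -0.0336, beside -0.00301 and -0.0154 for all genes. With plain read totals they were 0.0336 and 0.0883, and the medians of all genes moved too, to 0.0586 and 0.107. All 5 differed between SAM and adenine, with Nfil3 alone lower under SAM (-0.86). Of all genes 20.8% were called higher and 22.0% lower in that comparison (42.7% in all). Against CTL these shares were 30.6% and 31.0% under adenine, and 33.7% and 35.7% under SAM. Cry1 is also among the E-box targets above.

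REV-ERB proteins repress through the NCoR complex, whose 6 listed genes changed in both directions. Hdac3, the histone deacetylase of the complex, rose in all treatments, by 0.31, 0.40, and 0.37. Tbl1xr1 rose by 0.50 under adenine and 0.60 under SAM, whereas its relative Tbl1x fell by 0.27 and 0.56. Ncor1, a corepressor gene, fell by 0.15 and 0.17, calls lost with plain read totals (-0.0883 and -0.0465) and quantile normalization (-0.0675 and -0.0274). Gps2 fell by 0.41 under DZ and rose by 0.28 under SAM. In all, 2, 5, and 6 of the 6 were called under DZ, adenine, and SAM, beside 45.9%, 61.6%, and 69.3% of all genes. Between SAM and adenine 2 were called, both lower, beside 20.8% of all genes higher and 22.0% lower. Plain read totals gave 2 higher and 1 lower in that comparison.

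Coactivators of CLOCK:BMAL1 and ROR were listed for 7 of 9 names. Limma called none of them under DZ, beside 45.9% of all genes, while 3 had an unadjusted p under 0.05 (voom called none, with 2 at that level). The share of all genes at that unadjusted level was not computed. Under adenine 2 rose and 1 fell, and under SAM 3 rose and 3 fell (3 and 1 with plain read totals). All genes were called higher and lower in 30.6% and 31.0% under adenine and in 33.7% and 35.7% under SAM, and the medians of the list were 0.00395 and -0.0943. Ncoa1, a coactivator of nuclear receptors, fell by 0.51 under adenine and 0.42 under SAM, and Med1, a Mediator subunit, rose by 0.31 and 0.33. Kat2b, an acetyltransferase gene, rose by 0.15 under adenine, a call lost with median centring (0.10), and by 0.21 under SAM. Ncoa2 alone differed between SAM and adenine (-0.20), beside 42.7% of all genes, and not with plain read totals (-0.135).

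Genes of kinases, ubiquitin ligases, and deacetylases that act on BMAL1 and REV-ERB changed in both directions. Of 13 listed, 2 rose and 3 fell under DZ, 4 rose and 6 fell under adenine, and 2 rose and 8 fell under SAM, with medians of -0.0153, -0.10, and -0.253. Under SAM 33.7% of all genes were higher and 35.7% lower, and in all 45.9%, 61.6%, and 69.3% of genes were called under the 3 treatments. With plain read totals 4 rose and 3 fell under adenine, and 2 rose and 6 fell under SAM. Gsk3b, a kinase that stabilizes REV-ERBα, fell by 0.25 under adenine and 0.82 under SAM. Huwe1 and Mycbp2, ligases of REV-ERBα, fell by 0.76 and 0.84 under SAM. Siah2, another such ligase, rose by 0.40 under DZ and 0.39 under adenine, and was lower under SAM than under adenine by 0.57. Stub1, a ligase of BMAL1, rose by 0.38, 0.33, and 0.17 under DZ, adenine, and SAM, and Csnk2a2, a subunit of the BMAL1 kinase CK2, fell by 0.22, 0.44, and 0.31. Between SAM and adenine 2 genes of the list were higher and 6 lower under SAM, or 2 and 4 with plain read totals. Of all genes 20.8% were called higher and 22.0% lower in that comparison (42.7% in all).

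All 11 genes of heme synthesis and breakdown were listed, heme being the ligand of REV-ERB. Of these, 2 rose and 2 fell under DZ, 4 rose and 3 fell under adenine, and 7 rose and 3 fell under SAM, with medians of 0.000292, 0.086, and 0.338. The 4, 7, and 10 calls among 11 genes stand beside 45.9%, 61.6%, and 69.3% of all genes. Under DZ plain read totals gave 3 higher and 2 lower, and quantile normalization 1 and 2. Alas1, the rate-limiting enzyme of the pathway, fell by 0.34 under DZ and 0.35 under adenine. Under SAM it rose by 0.12, a call lost with median centring (0.0836) and quantile normalization (0.0953), and it was 0.47 higher under SAM than under adenine. Cpox, a later enzyme, fell by 0.87 under adenine and 1.62 under SAM, and Hmox1, which breaks heme down, fell by 1.08 and 0.90. Uros rose by 0.62 under DZ, Ppox rose by 0.50 under adenine, and Blvrb, a biliverdin reductase gene, rose by 1.03 under SAM. Fech, the last enzyme of synthesis, fell by 0.21 under DZ and rose by 0.39 under SAM. Between SAM and adenine 6 were higher and 2 lower under SAM, beside 20.8% of all genes higher and 22.0% lower (42.7% in all).

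**Figure D4:**
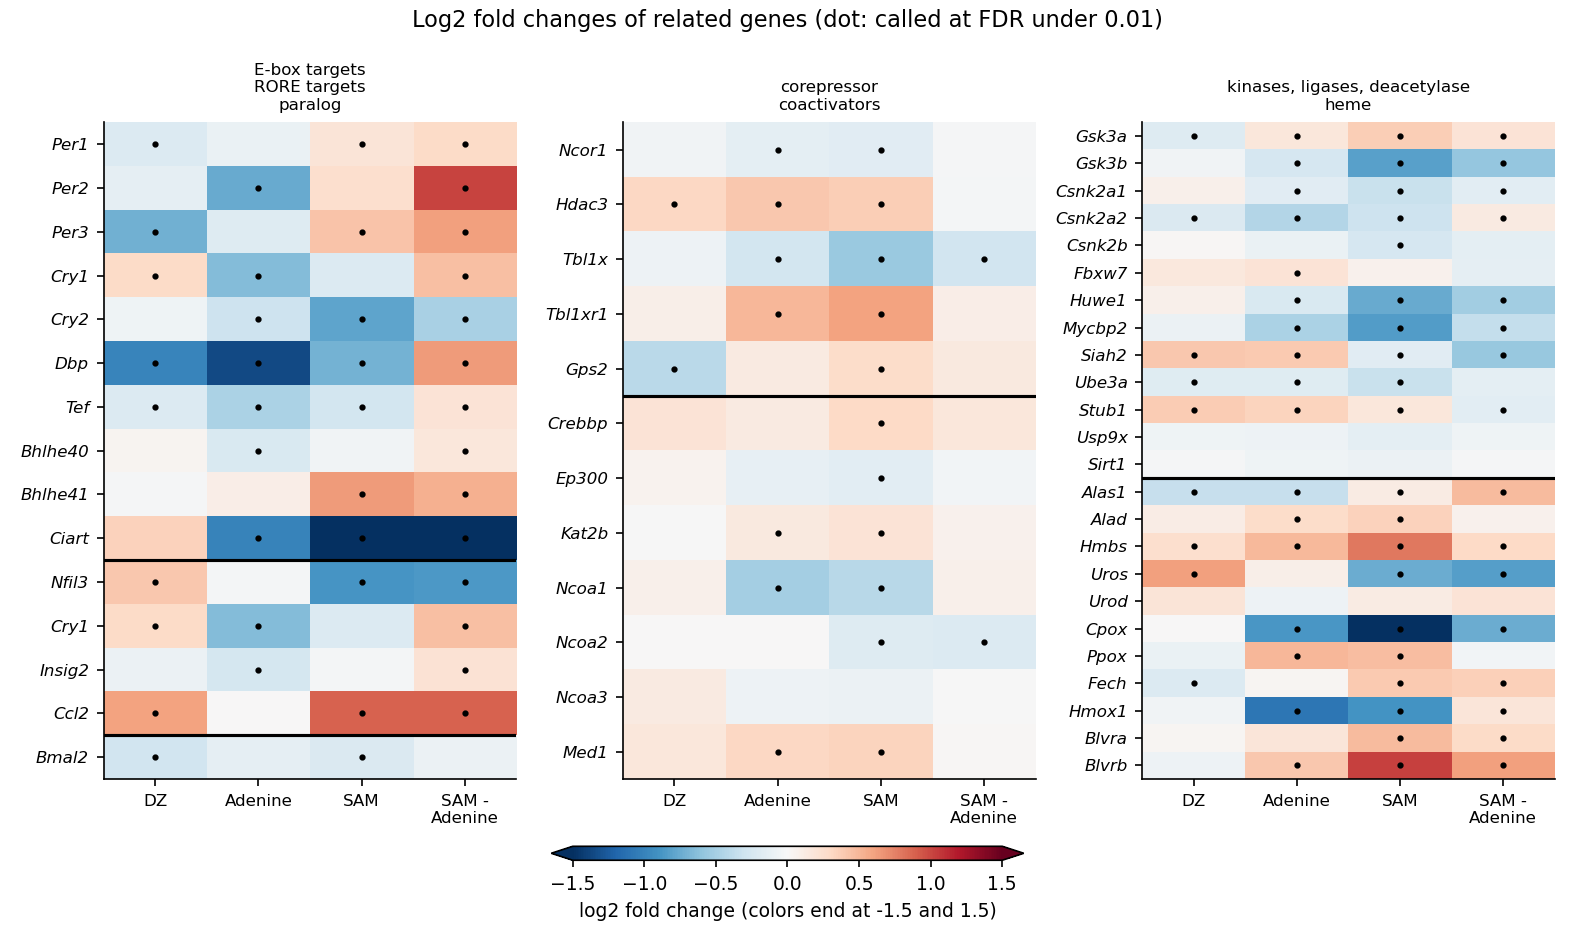
Log2 fold changes of targets, a paralog, cofactors, modifying enzymes, and heme genes from the lists. Rows are genes, columns are the 3 comparisons with CTL and SAM minus adenine, red is higher and blue lower, colors end at -1.5 and 1.5, and a dot marks a call at an FDR under 0.01. The E-box targets are blue or near white under adenine, where 7 of 10 fell, and red for 8 of 10 in SAM minus adenine. Of all genes 31.0% were called lower under adenine and 20.8% higher in SAM minus adenine.

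Genes most like each member were sought among 10312 genes with a symbol and a mean of at least 3 log2 CPM, by Pearson r over the 12 libraries, which is a description of libraries that fall into 4 groups. For Bmal1 they were Pcdh19 (0.969), Ahr (0.969), which encodes the aryl hydrocarbon receptor of the same bHLH-PAS family, and Vcan (0.968), a matrix proteoglycan gene. Ahr averaged 6.47 log2 CPM in CTL, 6.78 under DZ, 7.22 under adenine, and 6.74 under SAM, the same order of groups as Bmal1. For Nr1d1 they were Ran (0.994), Psmd8 (0.989), and Rae1 (0.987), genes of nuclear transport and the proteasome. Ran averaged 8.50 in CTL, 8.76 under DZ, 8.21 under adenine, and 8.18 under SAM.

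Nr1d2 was most like St3gal4 (0.983), Naa16 (0.961), and Brd2 (0.961), and Rora was like Msi2 (0.981), which encodes an RNA-binding protein, and Bltp3a (0.98). For Clock they were Thoc2 (0.953), Usp34 (0.95), and Purb (0.943). Npas2, close to the floor, was most like Tmem87a (0.92), Norad (0.833), and Nopchap1 (0.81). Among the 6 genes themselves the highest r was that of Clock and Rora (0.916), and the lowest was that of Bmal1 and Nr1d2 (-0.769). The 2 REV-ERB genes had 0.72, and Bmal1 and Clock 0.0223, over the same 12 libraries.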

How the data were processed

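RNA of 12 cultures, 3 for each of CTL, DZ, adenine, and SAM, was sequenced as polyadenylated RNA. Per the labels and the study's methods, the authors trimmed reads with Trimmomatic, aligned them to GRCm39 with HISAT2, quantified with StringTie, and normalized with edgeR after removing genes under a CPM minimum. The deposited values are log2 CPM on normalized library sizes, and all sample columns were used (0 left out). How the scaling factors (0.962 to 1.054) were computed is not given in the sources used here. The members, gene lists, and motifs were chosen with earlier results of these data known.

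The deposited log2 values were fitted as they stand with limma 3.58.1 in R 4.3.3, with all 4 groups in 1 model and eBayes trended by mean level. Tests were two-sided with Benjamini-Hochberg adjustment over 12591 genes, and a gene was called at an FDR under 0.01. The fit was tested on simulated data. Fold changes are on the log2 scale with the authors' prior count of 2, which understates changes of low genes. Whole reads recovered from the values (100% within 0.01 of a whole read, at most 0.00204 away) gave depths, per-length levels, and ratios. They are estimates made by StringTie from coverage.

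Named genes were all 6 members and their paralogs, the 3 genes most like each member, the corepressor list, and up to 3 genes with the smallest adjusted p per other list and comparison. A few genes picked by this rule are not reported here. Thra, Tmem165, and the few genes that make up a count were named after their values were seen. Positions come from GENCODE vM39 (12575 of 12591 identifiers matched), and 9 promoter windows of the 6 members from RefSeq (GRCm38.p6). Motifs searched on both strands were the E-box CACGTG, its variant CACGTT, the hexamer AGGTCA, the RORE core TAGGTCA that contains it, and the D-box TTATGTAA, found in 0.938% of windows and in none of the 9. Python 3.11.15, numpy 2.4.6, pandas 2.3.3, scipy 1.17.1, and matplotlib 3.10.9 were used. Whether dishes of the same number were handled together was not found in the sources used here, and the main fit did not pair them. The r of deviations between same-numbered libraries was between -0.142 and 0.181, with no differently numbered pairs set beside it. Alternatives were other scalings, filters, variance models, thresholds, voom, a pseudocount of 1 CPM, a replicate block, and leaving out each library.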

Additional observations from a re-analysis of the deposited data

How the results depend on the processing

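The alternatives were 13 settings beside leaving out each library. Shares of all genes called under them, or at an unadjusted p under 0.05, were not computed. Counts under them, here and above, thus show only how calls of the listed genes moved. Requiring a log2 fold change of 0.5 or more in size left 0 members called under DZ, 1 under adenine, 1 under SAM, and 1 between SAM and adenine, by its own construction, since most changes were smaller. Without that requirement 2 members had an unadjusted p under 0.05 under DZ in limma, and voom also called 2. Quantile normalization left 2 members called under SAM, and leaving out single libraries gave 2 (without CTL replicate 2) to 4. For the fall of Clock under SAM, the adjusted p over the 13 settings ran from 0.00164 to 0.6, and leaving out single libraries gave -0.192 to -0.0975. For Nr1d2 under SAM it ran from 0.000544 to 0.644, and for Bmal1 under SAM from 0.000375 to 0.217. With a replicate block the counts stayed at 2, 3, 4, and 3, and no call of a member changed. Signs turned only for differences that were not called. Nr1d2 under DZ became 0.0242 with plain read totals and 0.000515 with quantile normalization, and ranged from -0.0193 to 0.0254 without single libraries. Clock under adenine became 0.0178 and Nr1d1 between SAM and adenine 0.0261 with plain read totals. Without single libraries Rora under DZ ranged from -0.00702 to 0.125 and Npas2 under adenine from -0.0262 to 0.25. Npas2 could not be fitted under the filters on low values. The cause of these changes was not tested. Depth limits Npas2, which had at most 163 reads in a library, and one time point and 3 dishes per group limit all 6 genes.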
